A study of Mus musculus with 8 samples.

Results

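Mouse liver transcripts of 10 cytochrome P450 genes of the Cyp2c cluster on chromosome 19 were examined: Cyp2c29, Cyp2c37, Cyp2c38, Cyp2c39, Cyp2c40, Cyp2c50, Cyp2c54, Cyp2c55, Cyp2c69 and Cyp2c70. They were taken by gene name, through their Ensembl identifiers on GRCm38. They make up 10 of the 16 Cyp2c genes in a table of 49671 genes. All 10 passed the filter on low values (at least 1 CPM, counts scaled to library size, in at least 2 libraries), as did 13117 genes in all. RNA-seq of liver from post weaning C57BL/6 mice gave 8 libraries, with 2 WT and 2 NT-KO libraries from each sex. The paper's reporting summary gives the strain as C57BL/6N. NT-KO mice were homozygous for a CRISPR/Cas9 deletion at the start of the coding sequence of Lbr, the gene for the lamin B receptor. It was predicted to leave a protein without its Tudor and RS domains or none at all. The paper's Western blot and mass spectrometry data favour a shortened protein from a later start site, though the exact site was not settled. The line came from a single male founder that was backcrossed to C57BL/6N females, so the mutant allele has 1 origin. WT animals carried no edited allele, and no group received a treatment.

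CYP2C enzymes sit in the membrane of the endoplasmic reticulum and take electrons from cytochrome P450 reductase to oxidize drugs, steroids, fatty acids and retinoids. Several of the mouse enzymes turn arachidonic acid into epoxides or hydroxy acids, and CYP2C70 hydroxylates bile acids to make the muricholic acids found in rodents. In mouse liver the cluster is known for sex-dependent members, which follow the pattern of growth hormone release through STAT5 and its partners, and for members that respond to the xenobiotic receptors CAR and PXR. Of the targeted gene itself, Lbr, the male WT libraries held 7.99 and 6.54 CPM, the male NT-KO libraries 12.8 and 13.6, the female WT libraries 7.43 and 6.96 and the female NT-KO libraries 13.1 and 14.0. Both NT-KO groups lay above both WT groups, although neither difference was called. A count over the whole gene includes exons outside the deletion, so it does not check the genotype labels.

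The 10 genes span 1180 kb, chr19:39007019-40187333 of GRCm38, in the order Cyp2c55, Cyp2c29, Cyp2c38, Cyp2c39, Cyp2c40, Cyp2c69, Cyp2c37, Cyp2c54, Cyp2c50 and Cyp2c70. Cyp2c38, Cyp2c40, Cyp2c69, Cyp2c54 and Cyp2c70 are on the minus strand and the other 5 on the plus strand. The coding sequences of the 45 pairs of these genes were between 61.9% and 96.1% identical, with a median of 75.6%. The closest pair was Cyp2c37 and Cyp2c50, at 96.1%, followed by Cyp2c54 and Cyp2c50 at 95.2%, Cyp2c37 and Cyp2c54 at 95.1% and Cyp2c38 and Cyp2c39 at 94.2%. Cyp2c40 and Cyp2c69 were 92.4% identical. Cyp2c67, a neighbour outside the list of 10, was 97.7% identical to Cyp2c69.

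Promoter windows were available for 9 of the 10 genes, from 250 bases before to 50 bases after the RefSeq transcript start (GRCm38.p6). Those shown are the windows of the genes called between the sexes in both genotypes in the data below (Cyp2c40, Cyp2c69 and Cyp2c38), of Cyp2c67, which resembles Cyp2c69 but had the opposite sex difference, and of Cyp2c29 and Cyp2c70, the most abundant members in males. Capitals mark TATAAA and CAAAGT, the latter the core of many HNF4-type sites, each found on either strand. The windows are for Cyp2c40 chr19:39812765-39813064, minus strand, for Cyp2c69 chr19:39886720-39887019, minus strand, for Cyp2c67 chr19:39648993-39649292, minus strand, for Cyp2c38 chr19:39463026-39463325, minus strand, for Cyp2c29 chr19:39286835-39287134, plus strand and for Cyp2c70 chr19:40187237-40187536, minus strand.
Cyp2c40: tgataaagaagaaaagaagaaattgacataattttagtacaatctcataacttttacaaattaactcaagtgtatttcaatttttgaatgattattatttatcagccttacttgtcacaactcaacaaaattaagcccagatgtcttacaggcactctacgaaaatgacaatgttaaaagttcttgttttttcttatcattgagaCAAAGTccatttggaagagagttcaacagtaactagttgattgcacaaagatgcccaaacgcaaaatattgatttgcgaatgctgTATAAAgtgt
Cyp2c69: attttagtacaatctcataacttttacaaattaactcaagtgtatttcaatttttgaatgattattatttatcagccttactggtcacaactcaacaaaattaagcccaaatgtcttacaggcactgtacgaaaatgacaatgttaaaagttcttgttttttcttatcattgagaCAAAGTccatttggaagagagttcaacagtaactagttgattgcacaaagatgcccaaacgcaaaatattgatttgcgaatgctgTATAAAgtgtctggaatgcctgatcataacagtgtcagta
Cyp2c67: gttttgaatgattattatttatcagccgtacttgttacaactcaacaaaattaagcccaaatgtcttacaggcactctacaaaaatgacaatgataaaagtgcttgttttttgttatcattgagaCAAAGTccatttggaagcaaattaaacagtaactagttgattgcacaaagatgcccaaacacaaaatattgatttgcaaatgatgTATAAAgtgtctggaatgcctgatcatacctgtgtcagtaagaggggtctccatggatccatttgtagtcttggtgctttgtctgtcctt
Cyp2c38: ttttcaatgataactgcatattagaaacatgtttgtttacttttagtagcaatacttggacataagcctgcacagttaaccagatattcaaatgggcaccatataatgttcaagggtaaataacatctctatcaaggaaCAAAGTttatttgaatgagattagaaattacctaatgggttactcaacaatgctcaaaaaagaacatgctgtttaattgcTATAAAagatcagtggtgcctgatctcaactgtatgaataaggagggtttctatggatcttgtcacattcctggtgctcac
Cyp2c29: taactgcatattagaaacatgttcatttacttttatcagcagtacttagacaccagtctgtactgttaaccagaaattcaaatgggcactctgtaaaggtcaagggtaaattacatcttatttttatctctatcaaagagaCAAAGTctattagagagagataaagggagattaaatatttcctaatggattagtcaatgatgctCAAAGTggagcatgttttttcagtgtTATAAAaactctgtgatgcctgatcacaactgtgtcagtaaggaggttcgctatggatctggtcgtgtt
Cyp2c70: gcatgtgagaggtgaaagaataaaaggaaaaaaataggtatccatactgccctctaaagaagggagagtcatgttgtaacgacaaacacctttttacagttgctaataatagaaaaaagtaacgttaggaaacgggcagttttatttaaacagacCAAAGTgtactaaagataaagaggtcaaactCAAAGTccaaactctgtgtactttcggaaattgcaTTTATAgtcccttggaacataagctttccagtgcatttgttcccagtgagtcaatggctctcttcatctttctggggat

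Over the whole window, Cyp2c68 and Cyp2c69 were 91.1% identical, Cyp2c40 and Cyp2c69 80.9%, Cyp2c67 and Cyp2c69 66.3%, and Cyp2c29 and Cyp2c38 69.6%. The windows start at different places relative to the aligned sequence. CAAAGT occurred in 9 of the 10 member windows (Cyp2c39 has 2), against 14.4% of all 32851 windows searched. Member windows resemble one another (Cyp2c37 and Cyp2c50 86.6%, Cyp2c39 and Cyp2c38 78.1% identical). They are therefore not independent, and no enrichment of any motif was tested. The longer CAAAGTCCA, which contains CAAAGT, was found in the windows of Cyp2c40, Cyp2c69 and Cyp2c70, and in 0.475% of all windows. Cyp2c40 and Cyp2c69 were higher in females and Cyp2c70 was not, so members with this match differed in the direction of their sex difference. Outside the members, the windows of Cyp2c65, Cyp2c67 and Cyp2c68 held it too. Cyp2c67 was called higher in males in WT, while Cyp2c68 lay lower in males and was uncalled. TATAAA was present in 7 of the 10 member windows and in 13.6% of all. Its first base lay at -31 from the start for Cyp2c38, -29 for Cyp2c55 and -19 for Cyp2c29. It lay at -3 for the second start of Cyp2c39, 11 for Cyp2c69 and 41 for Cyp2c40. For Cyp2c70 it was on the reverse strand, at -29. Not every match is thus placed before the annotated start. ATTGAT, a sequence read by HNF6-type and CUX-type factors, occurred in the windows of Cyp2c40, Cyp2c69, Cyp2c37 and Cyp2c50 (7.54% of all windows). TGTTTAC, a forkhead core, was found for Cyp2c38 and for both starts of Cyp2c39 (3.65% of all). AGGTCA, a nuclear receptor half-site, was found for Cyp2c29, Cyp2c70 and 1 start of Cyp2c39 (16.3% of all). No member window held TTCNNNGAA, the core bound by STAT5 and BCL6, which 8.30% of all windows held. All 7 motifs were searched on both strands.

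Likeness between the genes bears on how reads are assigned. Stretches of 50 bases that occur in the transcripts of another gene made up 60.3% of the stretches of Cyp2c40 and 54.3% of those of Cyp2c69, of which most were shared within the group Cyp2c40, Cyp2c69, Cyp2c67 and Cyp2c68. The share was 30.1% for Cyp2c37, 25.7% for Cyp2c54 and 18.3% for Cyp2c50, which share with one another. It was 12.0% for Cyp2c39, 7.45% for Cyp2c38, 4.25% for Cyp2c29 and 1.13% for Cyp2c55, and no stretch of Cyp2c70 occurred elsewhere. Cyp2c29 also shares 142 exon bases with the pseudogene Cyp2c53-ps on the same strand. How reads with several matches were counted was not given in the sources used here, so levels of Cyp2c40, Cyp2c69 and the Cyp2c37 group are uncertain to that extent.

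**Figure D1:**
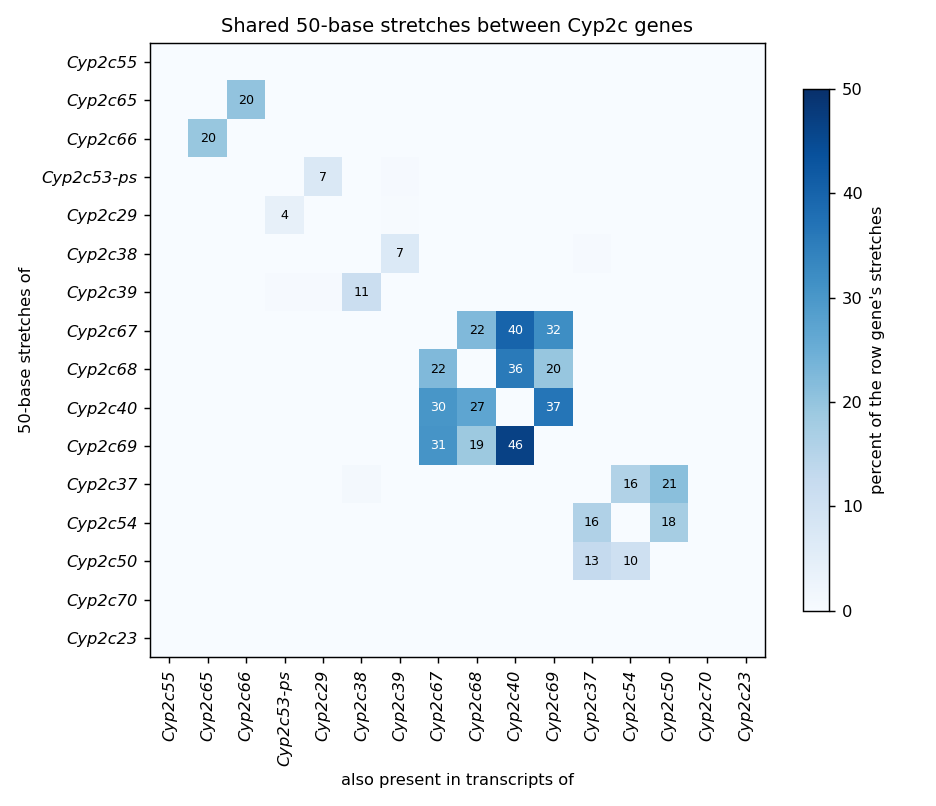
Percent of the 50-base stretches in the transcripts of each Cyp2c gene (rows, in the order of the chromosome) that also occur in transcripts of another Cyp2c gene (columns). Sharing falls into blocks, with 46.5% of the stretches of Cyp2c69 also in Cyp2c40 and none of those of Cyp2c70 elsewhere.

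Library totals ran from 45020377 to 64396291 counts, so that 1 count was worth 0.0147 to 0.0236 CPM, and the members took 0.27% to 0.514% of them. Hepatocyte marker genes (6) summed to 77700 to 115000 CPM per library, while 4 pancreas markers summed to at most 0.712 CPM and 4 kidney tubule markers to at most 0.0572 CPM. T cell markers (4 genes) reached 0.476 to 3.24 CPM, and of 5 intestinal markers only Fabp2 passed the filter, at 37.0 to 89.2 CPM. Red blood cell markers (5 genes) summed to 445 to 947 CPM for male WT, 370 to 372 CPM for male NT-KO, 180 to 185 CPM for female WT and 170 to 320 CPM for female NT-KO. B cell markers (5 genes) summed to 3.80 to 6.55, 9.03 to 51.0, 21.1 to 21.8 and 8.03 to 11.8 CPM in the same order of groups. In whole liver, fewer cells of a type and less RNA per cell cannot be told apart. Replicates of a group differed by far more than counting noise, with chi-square values of 112 to 278 per degree of freedom, and the labels do not say that they came from separate animals. The p-values measure the spread between these libraries.

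Levels were compared between genes as CPM per kb of exon. In male WT, Cyp2c70 came first at 689 ± 28.4 (SD, n = 2) and Cyp2c29 second at 479 ± 101, and these 2 genes held 45.8% and 31.8% of the summed level per kb of the 10 members. Cyp2c29 encodes a CAR-responsive epoxygenase of arachidonic acid and is one of the most abundant P450s of mouse liver. Cyp2c50 followed at 174 ± 115, Cyp2c54 at 81.5 ± 41.4 and Cyp2c37 at 66.8 ± 55.6, whose ranges over the libraries overlapped from one to the next. Cyp2c39, Cyp2c40, Cyp2c55, Cyp2c38 and Cyp2c69 each averaged 6.13 CPM per kb or less in male WT, and their neighbours in this order overlapped. In male NT-KO, Cyp2c29 (462 ± 159) and Cyp2c70 (347 ± 82.3) overlapped, as did Cyp2c70 and Cyp2c50 (224 ± 104).

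The make-up in females was more even. Cyp2c69 led in female WT at 390 ± 142 CPM per kb (19.3% of the members' sum), ahead of Cyp2c37 at 344 ± 65.4, Cyp2c29 at 269 ± 157, Cyp2c70 at 259 ± 75.9 and Cyp2c50 at 221 ± 63.0. Per kb of the longest transcript, in place of all exons, Cyp2c50 averaged 354 CPM and came second. Per kb of exon, each of these overlapped the next, as did Cyp2c40 (174 ± 14.4), Cyp2c54 (164 ± 1.83) and Cyp2c39 (157 ± 32.9). Cyp2c38 stood below at 42.7 ± 9.25 and Cyp2c55 last at 0.647 ± 0.564. In female NT-KO the order again began with Cyp2c69 (449 ± 245) and Cyp2c37 (350 ± 13.5), and Cyp2c55 was again last (0.622 ± 0.652). The summed level of the 10 genes was 1700, 1310, 1160 and 1480 CPM per kb in the male libraries and 1850, 2190, 2200 and 2240 in the female libraries. Cyp2c38, Cyp2c40 and Cyp2c69 together held 0.339% to 0.819% of it in males and 22.7% to 41.2% in females.

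**Figure D2:**
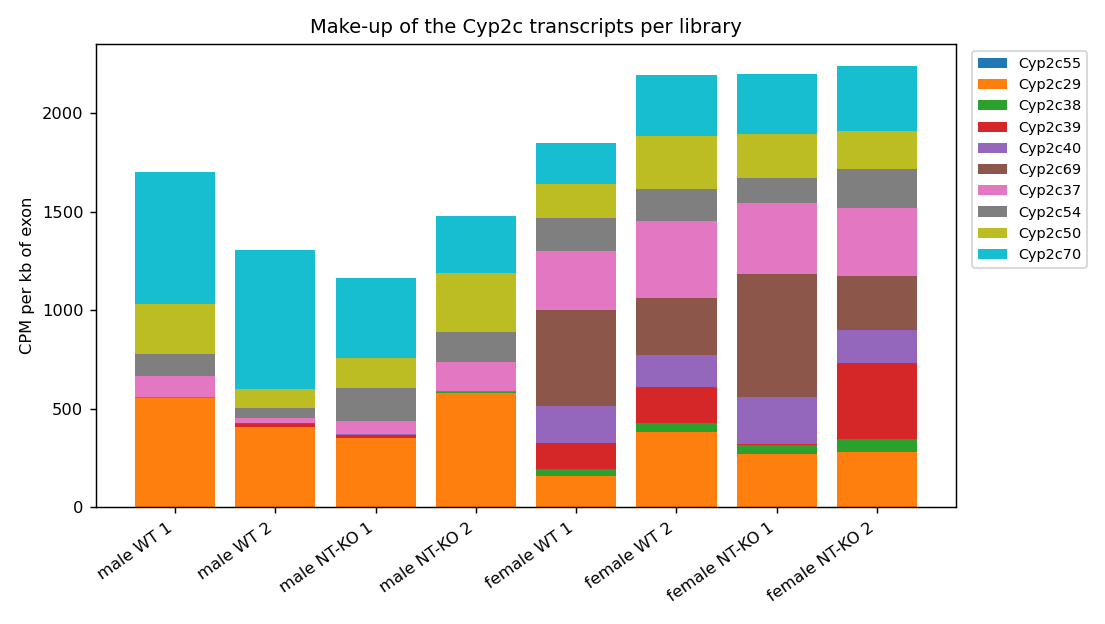
CPM per kb of exon of each of the 10 genes, stacked for each of the 8 libraries. Male libraries consist mainly of Cyp2c29, Cyp2c70, Cyp2c50, Cyp2c54 and Cyp2c37, while Cyp2c69, Cyp2c40 and, in all but female NT-KO replicate 1, Cyp2c39 add visible layers in females.

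The sexes were compared first within WT. A gene was called where its false discovery rate (FDR) was 0.05 or less and its log2 fold change over 1 in size, by edgeR's quasi-likelihood test adjusted over all 13117 genes. Of the 10 members, 4 were called, against 4.68% of all genes tested: Cyp2c38, Cyp2c40 and Cyp2c69 were lower in males (2.55% of all genes) and Cyp2c70 was higher in males (2.13% of all genes). Scaling by library size only called 234 genes higher and 677 lower in WT males, in place of 279 and 335, and moved the median of all genes to -0.18 on the log2 scale. The groups did not overlap for 8 of the 10, and for 62% of all genes. In NT-KO mice 3 of 10 members were called, against 1.78% of all genes. These were again Cyp2c38, Cyp2c40 and Cyp2c69, lower in males (0.839% of all genes), and none was called higher in males (0.945% of all genes). Groups did not overlap for 5 of the 10 there, and for 34.3% of all genes. The median log2 fold change, male minus female, over the 10 members was -1.69 in WT and -0.88 in NT-KO, beside -0.002 and 0.013 over all genes tested. Of the cell markers given above, 4 of 5 red blood cell genes (Alas2, Hbb-bt, Hbb-bs and Hba-a1) were called higher and the B cell genes Cd79a and Cd79b called lower in male than in female WT, and their part in the sex differences was not tested.

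Cyp2c69 had the largest sex difference of the 10 genes. The male WT libraries held 0.512 and 3.16 CPM, the male NT-KO libraries 1.08 and 2.55, the female WT libraries 837 and 494 and the female NT-KO libraries 1060 and 471. The lowest female library was at 471 CPM and the highest male library at 3.16 CPM, and the log2 fold changes were -8.53 (SE 0.998, FDR 0.00331) in WT and -8.72 (SE 1, FDR 0.00361) in NT-KO. The product of Cyp2c40 hydroxylates arachidonic acid. Of its transcript, WT males held 7.80 and 5.90 CPM, NT-KO males 5.07 and 11.1, WT females 375 and 333 and NT-KO females 481 and 343, so the sexes lay far apart. Its log2 fold changes were -5.69 (SE 0.428, FDR 0.000498) and -5.67 (SE 0.427, FDR 0.000542), which is 51.6-fold and 50.8-fold. Because Cyp2c40 and Cyp2c69 share much of their sequence, part of the count of either could come from the other.

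Cyp2c38, an epoxygenase gene, was at 4.71 and 4.04 CPM in male WT and 104 and 141 in female WT, a log2 fold change of -4.81 (SE 0.423, FDR 0.000896). In NT-KO it was at 6.39 and 14.7 CPM in males and 134 and 183 in females, with a log2 fold change of -3.91 (SE 0.403, FDR 0.00223). All 4 male libraries lay below all 4 female libraries. Cyp2c70, the bile acid hydroxylase, went the other way. It was at 1320 and 1400 CPM in male WT and 407 and 619 in female WT, which is 2.66-fold higher in males (log2 fold change 1.41, SE 0.261, FDR 0.0242). The call was lost without male WT replicate 1, male WT replicate 2 or female WT replicate 1, and with a replicate block. Over all alternatives the log2 fold change of Cyp2c70 ran from 1.14 to 1.74. In NT-KO the sexes overlapped for this gene, with 804 and 573 CPM in males and 610 and 653 in females (log2 fold change 0.12, SE 0.256, FDR 0.950).

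Cyp2c37, which encodes a CAR-responsive enzyme that oxidizes arachidonic acid, was at 193 and 50.1 CPM in male WT and 543 and 712 in female WT. The groups did not overlap, but the log2 fold change of -2.36 (SE 0.598) just missed the threshold by the quasi-likelihood test (FDR 0.0564). It was called by the likelihood ratio test (FDR 0.0023) and by DESeq2 (FDR 0.013), and over all alternatives its FDR ran from 2.78e-18 to 0.192. It was also called without male WT replicate 1 (-3.64, FDR 0.0157) and without male NT-KO replicate 1 (FDR 0.0476) or 2 (FDR 0.0475). In NT-KO, Cyp2c37 was at 123 and 262 CPM in males and 656 and 621 in females (log2 fold change -1.73, SE 0.585, FDR 0.316). Cyp2c54, another arachidonic acid epoxygenase gene, was at 198 and 93.2 CPM in male WT and 294 and 290 in female WT (log2 fold change -1.01, SE 0.35, FDR 0.115), and it was called by DESeq2 (FDR 0.0194) and without male WT replicate 1 (-1.64, FDR 0.0421). In NT-KO the sexes overlapped, with 298 and 274 CPM in males and 229 and 357 in females (log2 fold change -0.04, SE 0.347).

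Cyp2c29 was at 1690 and 1250 CPM in male WT and 482 and 1160 in female WT (log2 fold change 0.83, SE 0.411, FDR 0.229), and at 1070 and 1760 in male and 827 and 864 in female NT-KO (0.74, SE 0.41, FDR 0.669). Its sexes did not overlap in either genotype, yet neither difference was called. Of Cyp2c50, the close relative of Cyp2c37, WT males held 743 and 269 CPM, WT females 516 and 775, NT-KO males 439 and 868 and NT-KO females 641 and 560. These ranges overlapped in both genotypes, with log2 fold changes of -0.35 (SE 0.485) and 0.12 (SE 0.484). In WT the value turned to 0.20 when male WT replicate 2 was left out, and in NT-KO to -0.46 without male NT-KO replicate 2. Cyp2c39 and Cyp2c55 were uncalled in both genotypes and are described with the spread between replicates.

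**Figure D3:**
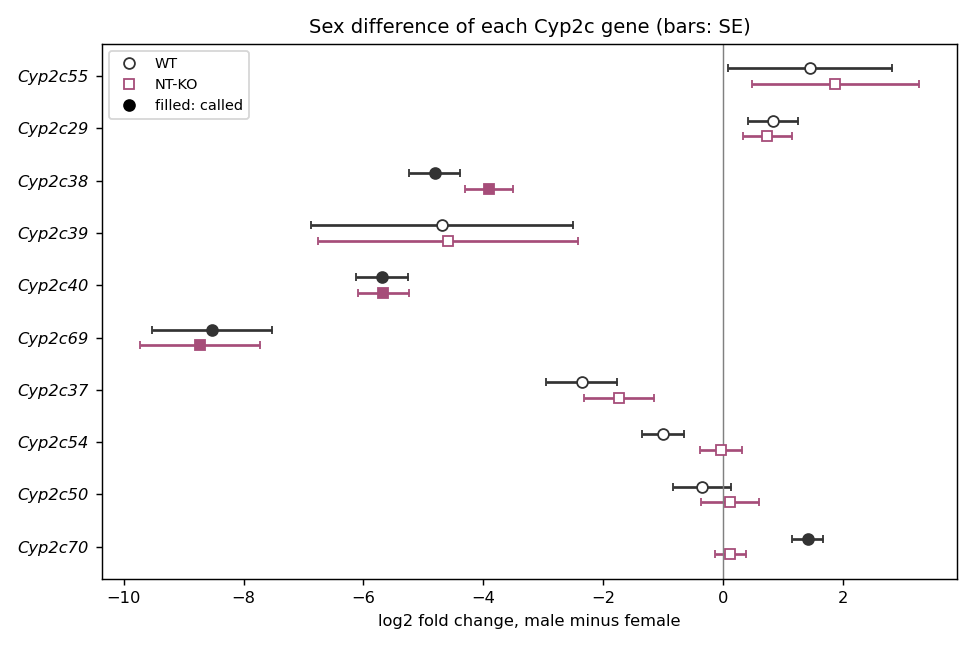
Log2 fold change, male minus female, of each gene in WT (circles) and NT-KO (squares), with bars of 1 SE and filled symbols for called genes. Cyp2c38, Cyp2c40 and Cyp2c69 lie between -8.72 and -3.91 in both genotypes, and Cyp2c70 is at 1.41 in WT and 0.12 in NT-KO.

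The genotypes were compared within each sex, the question of the study's design for liver. None of the 10 members was called between NT-KO and WT by the quasi-likelihood test in males (0.0152% of all genes were called) or in females (0.00762% of all genes). In males 3 of the 10 had an unadjusted p below 0.05, as did 11.5% of all genes, and in females none had, against 1.55% of all genes. The likelihood ratio test called 0 of 10 members in males (1.56% of all genes) and DESeq2 called 1 (1.66% of all genes). Groups did not overlap for 3 of the 10 members in males, with 38.9% of all genes, and for 0 of 10 in females, with 26.4% of all genes. The median log2 fold change over the members was 0.35 in males and 0.12 in females, beside 0.012 and 0.001 over all genes. For a single gene tested alone, the smallest two-sided p that an exact permutation of 2 against 2 libraries allows is 0.333.

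The 3 members without overlap in males were Cyp2c38, Cyp2c54 and Cyp2c70. Cyp2c38 had 4.71 and 4.04 CPM in WT males and 6.39 and 14.7 in NT-KO males. DESeq2 called it higher in NT-KO (FDR 0.0154), while the quasi-likelihood test gave a log2 fold change of 1.27 (SE 0.376, FDR 0.285). Even at its highest it stayed far below the 104 CPM of the lowest female library. Cyp2c54 was at 198 and 93.2 CPM in WT males and 298 and 274 in NT-KO males (log2 fold change 0.97, SE 0.35, FDR 0.357). The female WT libraries were at 294 and 290 CPM. Cyp2c70 was at 1320 and 1400 CPM in WT males and 804 and 573 in NT-KO males (log2 fold change -0.99, SE 0.258, FDR 0.243). DESeq2 gave it an FDR of 0.00723 at the same fold change, which is under the fold threshold. Across the alternatives the FDR of Cyp2c70 ran from 0.00446 to 0.558.

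In females the same 3 genes overlapped between genotypes. Cyp2c38 had a log2 fold change of 0.37 (SE 0.357), Cyp2c70 of 0.30 (SE 0.256), and the group means of Cyp2c54 were 293 CPM in NT-KO and 292 in WT. Whether the genotype difference itself differed between the sexes was tested by the interaction term, for which 0 of 10 members and 0.0152% of all genes passed an FDR of 0.05. One member had an unadjusted p below 0.05, Cyp2c70, at -1.29 on the log2 scale (SE 0.363, FDR 0.573 by edgeR's quasi-likelihood test), with an FDR of 0.198 by the likelihood ratio test and 0.0546 by DESeq2. The interaction was 0.90 (SE 0.516, FDR 0.727) for Cyp2c38 and 0.97 (SE 0.492, FDR 0.696) for Cyp2c54. The loss of the Cyp2c70 call between the sexes in NT-KO mice is therefore not shown to differ from WT by the quasi-likelihood test.

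The remaining 7 members had overlapping genotypes in both sexes. Their log2 fold changes lay between -0.05 (Cyp2c29) and 0.66 (Cyp2c37) in males and between -0.10 (Cyp2c50) and 0.31 (Cyp2c39) in females. Standard errors were widest for Cyp2c39, at 1.9 in males and 1.86 in females, and for Cyp2c55, at 1.32 and 1.39. Cyp2c69, which carried the largest sex difference, had genotype differences of 0.02 (SE 0.788) in males and 0.20 (SE 0.709) in females.

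**Figure D4:**
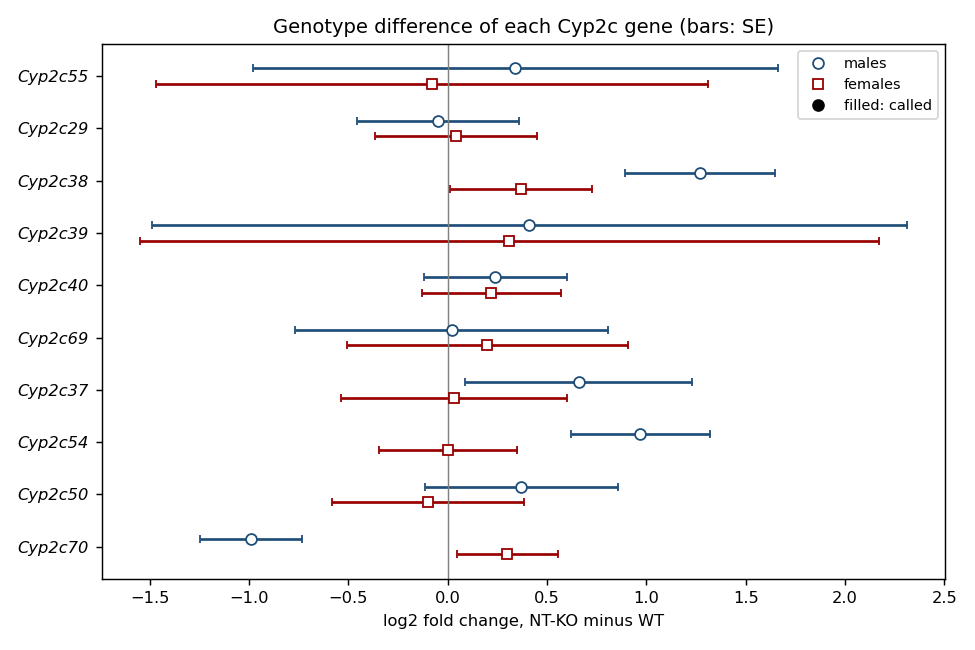
Log2 fold change, NT-KO minus WT, of each gene in males (circles) and females (squares), with bars of 1 SE and no filled symbol because none was called. In males Cyp2c38 (1.27) and Cyp2c54 (0.97) lie above 0 and Cyp2c70 (-0.99) below, and the bars of Cyp2c39 and Cyp2c55 are the widest.

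Cyp2c39, known as a retinoic acid hydroxylase, varied more within groups than any other member. The male WT libraries held 0.406 and 21.9 CPM, the male NT-KO libraries 28.3 and 1.16, the female WT libraries 244 and 328 and the female NT-KO libraries 11.5 and 699. The replicates differed 53.9-fold in male WT, 24.3-fold in male NT-KO and 60.8-fold in female NT-KO, but only 1.35-fold in female WT. Its SD of log2 CPM within groups was 3.31, the 6th largest of the 13117 genes, whose median was 0.22. Female NT-KO replicate 1, at 11.5 CPM, lay below the higher library of each male group, although the same library had the highest Cyp2c69 (1060 CPM) and Cyp2c40 (481 CPM) of all 8. The sex difference of Cyp2c39 was -4.69 on the log2 scale in WT (SE 2.18, FDR 0.208), without overlap, and -4.59 in NT-KO (SE 2.17, FDR 0.568), with overlap. Without female NT-KO replicate 2 the NT-KO value was 0.35, so it rests on that library.

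Cyp2c55, which encodes an enzyme strongly induced through CAR and PXR, was the lowest member in females. The male WT libraries held 6.21 and 0.850 CPM, the male NT-KO libraries 0.488 and 8.52, the female WT libraries 0.494 and 2.09 and the female NT-KO libraries 2.16 and 0.321. Its SD within groups was 2.09, rank 33 of all genes. The sex differences of 1.45 (SE 1.37, FDR 0.531) in WT and 1.87 (SE 1.39, FDR 0.804) in NT-KO were uncalled, and each turned negative without the higher male library of its genotype (-0.61 and -1.34). In male WT, male NT-KO and female NT-KO, the replicate with more Cyp2c55 was the one with less Cyp2c39, while in female WT replicate 2 had more of both. Of Cyp17a1, a steroid hydroxylase gene named after its values were seen, WT males held 5.42 and 0.873 CPM, NT-KO males 0.285 and 11.5, WT females 54.4 and 92.3 and NT-KO females 104 and 3.70. In all 4 groups the replicate with more Cyp17a1 was the one with more Cyp2c55. The share of all genes with that order was not counted, so no link between Cyp17a1 and Cyp2c55 is shown.

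Some Cyp2c genes were lower in the same library of each male group, as shown here for Cyp2c37, Cyp2c50 and Cyp2c68. Male WT replicate 2 was the lower for each of them (50.1, 269 and 67.4 CPM, against 193, 743 and 162), and male NT-KO replicate 1 was also the lower (123, 439 and 73.1, against 262, 868 and 168). Cyp2c37 and Cyp2c50 share sequence, whereas Cyp2c68 belongs to the Cyp2c40 group. The same 2 libraries were also the lower for Cyp2c29, Cyp2c38, Cyp2c40 and Cyp2c55 in their groups. They were the higher for Cyp2c39 and for Cyp2c70 (1400 against 1320 CPM in male WT and 804 against 573 in male NT-KO). Cyp2c67 was level in male WT (262 and 262 CPM) and higher in male NT-KO replicate 1 (259 against 184). Cyp2c54, Cyp2c69, Cyp2c23 and Cyp2c53-ps followed neither order in both male groups. The hepatocyte markers Alb, Apob and Cps1 were also lower in these 2 libraries. Apoa1 and Serpina1a were not, and Ttr was nearly level in male NT-KO. The share of all genes with this order was not counted. Cyp2c70 had an SD within groups of only 0.28, with 33.3% of all genes above it, so its replicates were the most alike of the 10 members.

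**Figure D5:**
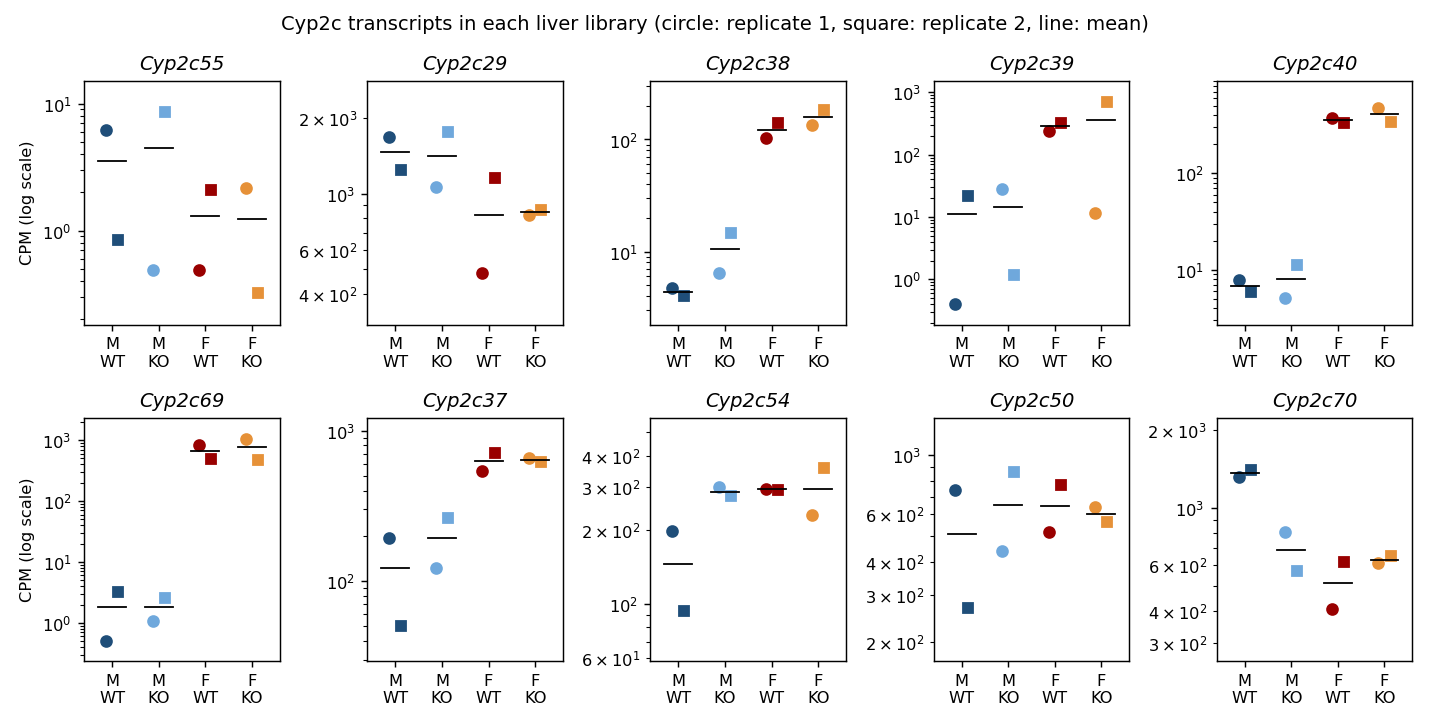
CPM of each gene on a log axis in the 8 libraries, by group (M male, F female, KO for NT-KO), with circles for replicate 1, squares for replicate 2 and lines for group means; each panel has its own axis. Cyp2c38, Cyp2c40 and Cyp2c69 separate the sexes, Cyp2c70 is highest in male WT, and the replicates of Cyp2c39 lie up to 60.8-fold apart.

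Other Cyp2c genes in the table showed the same variety. Cyp2c67, whose coding sequence is the closest to that of Cyp2c69, was at 262 and 262 CPM in male WT and 105 and 111 in female WT, and was called higher in males (log2 fold change 1.28, SE 0.219, FDR 0.0186). In NT-KO it was at 259 and 184 CPM in males and 140 and 108 in females (0.84, SE 0.217, FDR 0.145). Its direction was opposite to that of Cyp2c69 and Cyp2c40 in every library pair between the sexes. Because these genes share much of their sequence, part of the Cyp2c67 count could come from the other 2. Cyp2c68 was lower in males at -1.72 (SE 0.538, FDR 0.0908) in WT and -1.67 (SE 0.537, FDR 0.282) in NT-KO, uncalled. The pseudogene Cyp2c53-ps was at 2.15 and 3.33 CPM in WT males, 0.834 and 1.66 in NT-KO males and at no more than 0.0918 CPM in any female library. It was called higher in males in both genotypes (FDR 0.00194 and 0.0123). Cyp2c23, an arachidonic acid epoxygenase gene outside the cluster at chr19:44005022-44029208, was at 261 to 496 CPM in all libraries and was called in no comparison. Cyp2c65 and Cyp2c66 did not pass the filter, with at most 0.0915 and 0.114 CPM.

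Among tested genes outside the family, the one whose log2 CPM followed each member most closely over the 8 libraries was found by the smallest SD of the difference. This rule picks the best of all such genes for every member, so a small SD shows no link between 2 genes, and none was tested. For Cyp2c69 the nearest gene was Xist, the RNA of the inactive X chromosome, at 0.723 to 967 CPM. The SD was 0.58 where the SD of Cyp2c69 itself was 4.79. Gm6135 was nearest to Cyp2c40 (0.37, own SD 3.08), Gm11695 to Cyp2c38 (0.44, own SD 2.42) and Gm11992 to Cyp2c37 (0.31, own SD 1.38). Aadat, an aminotransferase of lysine and tryptophan breakdown, was nearest to Cyp2c70 (0.23, own SD 0.61), the glycosyltransferase gene B4galnt3 to Cyp2c29 (0.19, own SD 0.60), 4931406P16Rik to Cyp2c50 (0.19, own SD 0.54) and the Wnt receptor gene Fzd6 to Cyp2c54 (0.15, own SD 0.61). Cyp2c39 had no close follower, since the SD for the nearest gene, Unc79, was 2.32, and that for Cyp2c55, Fam83f, was 0.91. Several of these genes were low themselves, with at most 1.44 CPM for Gm11992, 2.25 for Gm11695 and 2.06 for B4galnt3. Within the family the closest pair was Cyp2c70 and Cyp2c67 (0.37), followed by Cyp2c29 and Cyp2c67 (0.50) and Cyp2c50 and Cyp2c54 (0.51).

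Genes that work with or regulate the cluster were counted by list. In the comparisons of genotypes and in the interaction, no gene was called in any of the lists that follow. Of 16 regulators, only Cux2, a female-specific repressor of liver genes, was called between the sexes, with a log2 fold change, male minus female, of -7.66 in WT (SE 0.592, FDR 0.000498) and -6.90 in NT-KO (SE 0.565, FDR 0.000808). Cux2 was at 0.247 to 0.631 CPM in the male libraries and 38.4 to 99.5 in the female libraries. The median of the regulators was 0.17 in WT and -0.02 in NT-KO (log2 fold change, male minus female). Of 10 target genes of CAR and PXR, 2 were called lower in male than female WT, Cyp2b10 (-3.17, SE 0.722, FDR 0.0421) and Cyp2a5 (-1.42, SE 0.312, FDR 0.0394), and 0 in NT-KO, with medians of -0.83 and -0.65. Cyp2b10, the standard CAR target, was at 2.68 and 0.330 CPM in male WT, so its lower replicate was the one with low Cyp2c37 and Cyp2c50. In male NT-KO, by contrast, Cyp2b10 was at 2.42 and 2.61 CPM while Cyp2c37 and Cyp2c50 differed between the replicates.

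No electron donor gene (4 tested, Por among them) was called between the sexes in either genotype, and neither was any of the 5 tested of 9 fatty acid epoxygenases and epoxide hydrolases. Their medians in WT were -0.16 and 0.14. Of 11 tested bile acid synthesis genes, 1 was called in both genotypes, Cyp7b1, the oxysterol 7-alpha-hydroxylase gene, higher in males by 4.34 (SE 0.428, FDR 0.00149) in WT and 3.15 (SE 0.406, FDR 0.00593) in NT-KO. Among genes known to be female-biased in liver, 13 of 14 were called lower in males in WT and 12 of 14 in NT-KO, with medians of -8.16 and -8.91. Known male-biased genes were called higher in males for 10 of 12 in WT and 9 of 12 in NT-KO, with medians of 4.50 and 3.65. Over all genes, 2.55% were called lower and 2.13% higher in WT males, and 0.839% and 0.945% in NT-KO males. Both lists were chosen with earlier results of these data known, so their counts are no independent check. Of 12 pericentral and 12 periportal hepatocyte genes, the former had 0 calls between the sexes, and of the latter Cdh1 was called higher in male WT (1.76, SE 0.249, FDR 0.00888) and Ctsc lower in male NT-KO (-1.27, SE 0.214, FDR 0.0237). Pericentral genes summed to 8360 to 8980 CPM for male WT, 7910 to 11600 for male NT-KO, 10700 to 11100 for female WT and 9140 to 10100 for female NT-KO. Markers of cholangiocytes, Kupffer cells, sinusoidal endothelial cells, stellate cells and hepatocytes had 0 calls in any of the 5 comparisons, and Alas2 alone of the cell markers was called between the sexes in NT-KO.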

How the data were processed

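Liver RNA-seq of 8 libraries, 2 per group, was analysed from a table of raw counts per gene that the authors deposited. Per the labels and the methods, reads were trimmed with cutadapt, aligned to GRCm38 with STAR 2.6.1a and counted with featureCounts on the Ensembl annotation. Strand setting and treatment of multi-mapping reads were not given in the sources used here. All groups came from the sample titles.

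Genes were named from GENCODE vM21 (GRCm38). Ribosomal, miRNA and mitochondrial genes were left out, as were genes that reached 1 CPM in fewer than 2 libraries, which left 13117. Counts were fitted with edgeR 4.0.16 (TMM scaling, glmQLFit and glmQLFTest, 1 mean per group, all 8 libraries), after the script was tested on simulated data. SE is the absolute log2 fold change over the root of F. Alternatives were DESeq2 1.42.0, the likelihood ratio test of edgeR, RLE factors, library size only, filterByExpr, no filter, a replicate block, the 4 libraries compared, other thresholds and each library left out. Log2 CPM used a prior count of 2. Sequences are from RefSeq and GENCODE, aligned with Biopython 1.88. Named genes are all Cyp2c genes counted, at most 5 called per list and comparison (all by count for the sex-biased lists), and the gene most like each member. Cyp17a1 and the hepatocyte markers named singly were added after their values were seen. Members and lists were chosen with earlier results of these data known.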

Additional observations from a re-analysis of the deposited data

How the results depend on the processing

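The counts of called members stayed within 1.5 times the reported counts except as follows. DESeq2 called 1 member between the male genotypes in place of 0. Without a filter on low counts, edgeR called 1 between the male genotypes, 1 in the interaction, 8 between the sexes in WT and 6 in NT-KO. That fit had infinite prior degrees of freedom, so every gene was given the spread of the trend rather than its own, and Cyp2c39 was called in spite of its replicates. With each library left out in turn, no count left this range. In those fits the lone library of a group is assumed to vary like the others.

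With a replicate block 0, 0 and 0 members were called for the genotype comparisons and the interaction, and 3 and 3 between the sexes in WT and NT-KO. The call of Cyp2c70 in WT was lost (FDR 0.0546), and no other call changed. Labels share replicate numbers, but nothing says what a number marks. Same-numbered libraries deviated from their group means with correlations over genes of -0.00665 in males and 0.023 in females between genotypes, and of -0.181 in WT and 0.111 in NT-KO between sexes. The negative correlation between WT libraries of the sexes led to a crossed replicate block, chosen after seeing the data, which called 5 members in WT and 534 genes, against 346 with the numbers as given and 614 with no block. Over all genes the quasi-likelihood test, likelihood ratio test, DESeq2 and the test with no filter called 614, 1039, 987 and 1736 between the sexes in WT, 234, 410, 401 and 825 in NT-KO, 2, 205, 218 and 667 between the male genotypes, 1, 11, 5 and 172 between the female genotypes and 2, 46, 62 and 552 in the interaction. With 1 library left out, the count in WT was 181 without female WT replicate 2, 214 without female WT replicate 1, 286 without male WT replicate 2, 381 without male WT replicate 1, 401 and 406 without either female NT-KO replicate and 724 and 725 without either male NT-KO replicate. The NT-KO count fell to 112 and 127 when female NT-KO replicate 1 or 2 was omitted, and was otherwise 161 to 233. Between the male genotypes it was 2 to 21, the highest without male WT replicate 1.

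Signs turned for small differences only, apart from Cyp2c39 and Cyp2c55. Between the sexes in WT, leaving out 1 library moved Cyp2c50 between -1.25 and 0.20 and Cyp2c55 between -0.61 and 2.84. In NT-KO the same moved Cyp2c39 between -8.25 and 0.35, Cyp2c50 between -0.46 and 0.53, Cyp2c54 between -0.32 and 0.32 (0.02 without male NT-KO replicate 2), Cyp2c55 between -1.34 and 3.80 and Cyp2c70 between -0.14 and 0.34. Between the female genotypes Cyp2c54 was at -0.02 with library size only, -0.03 with the replicate block, and between -0.35 and 0.29 with a library left out (-0.01 without female WT replicate 2). The cause was not tested. Of all values recomputed, 4 lost a call, all for Cyp2c70, and 19 gained one. Levels per kb by the longest transcript in place of all exons moved by more than their SD for Cyp2c70, Cyp2c50, Cyp2c40 and Cyp2c29 in at least 1 group, and put Cyp2c50 second in female WT and Cyp2c70 second in female NT-KO.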
